A study of Mus musculus with 12 samples.

Results

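The surrogate light chain and recombination genes of B cell precursors are *Igll1*, *Vpreb1*, *Vpreb2*, *Vpreb3*, *Rag1*, *Rag2* and *Dntt*. These 7 genes were listed by name for their known function, with earlier results of these data known, among the 41444 genes of the table, and all 7 were among the 11536 genes with a mean level high enough to be tested. They were studied in *BCR*-*ABL1* transformed B cell leukemia (B-ALL) cells with and without LY2090314, an inhibitor of GSK3β, the kinase that marks β-catenin for degradation. RNA-seq was made of 3 samples of ERT2 control cells and 3 samples of ERT2 cells with LY2090314. All of these cells descended from pre-B cells of *Ctnnb1* fl/fl bone marrow that were grown with IL7, transformed with a *BCR*-*ABL1* retrovirus and then kept without IL7. They carried the ERT2 vector without Cre, so that both β-catenin alleles stayed intact, and all received 1 µM 4-OHT, a tamoxifen metabolite, for 2 days. The treated cells also received 40 nM LY2090314, for 1 day by the sample labels, whereas the paper's legend gives a shorter time. Cells with CreERT2 are not analysed here.

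Early B cells assemble the genes of their antibody chains from separate segments. The Rag1 and Rag2 proteins form the recombinase that cuts DNA beside these segments, and Dntt, or terminal transferase, adds bases to the cut ends without a template. A heavy chain made in this way is first tested without a light chain: λ5, the product of *Igll1*, and a VpreB protein form a surrogate light chain that pairs with the µ heavy chain in the pre-B cell receptor. Signals of that receptor are known to lead to proliferation, and the surrogate chain genes are shut off as the cell goes on to assemble a light chain. Vpreb3 carries a related name but is a chaperone-like protein of the B lineage and is no part of the surface pre-B cell receptor.

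Expression is given as the deposited rlog value, a log2 scale on which a difference of 1 is a doubling and on which genes with low counts are pulled to their own average. Differences between groups were tested with limma over all 11536 genes, and a gene was called at an adjusted p under 0.05. Read depth is unknown, as the values carry no counts. The study describes the 3 samples as biological replicates from separate mice. However, a pair of treated columns, called A and B here, shares the number that opens the column name. What this number stands for is not given. The third treated column is called C. The SD of the difference across genes was 0.186 between A and B and 0.253 between either of them and C. It lay between 0.185 and 0.239 for the control columns and was 0.581 or more between the groups. The B cell marker list, which holds *Cd79a*, *Cd79b*, *Ebf1*, *Pax5* and *Blnk* among others, had a mean rlog value of 13.12 to 13.14 in control cells and 12.57 to 12.64 in treated cells. In the T cell list *Cd3e*, *Cd3g*, *Cd4* and *Cd8a* were at or below 0 in all samples, as were *Mpo* and *Elane* in the myeloid list and 4 of 5 stromal markers. The summed myeloid level nevertheless moved with treatment (list mean 1.76 to 1.81 in control cells and 2.37 to 2.41 in treated cells), through *Ly6g* (3.48 to 6.45) and *Lyz2* (5.80 to 6.34), and its part in the results was not tested. Markers of plasma cells moved as well (list mean 5.49 to 5.53 and 5.63 to 5.70): *Xbp1* (11.19 to 12.57) and *Jchain* (4.34 to 4.65) were called higher, *Sdc1* (8.18 to 7.09) was called lower and *Tnfrsf17* was below 0. Of the other T cell and erythroid markers, *Thy1* (3.94 to 3.66) and *Hbb-bt* (3.74 to 3.29) were called lower. *Trac* (1.80 to 1.88), *Itgam* (1.37 to 1.45), *Csf1r* (0.071 to 0.14) and *Klf1* (2.39 to 2.29) were above 0 but too low to test. The part of these markers in the results was not tested either. The calls of *Jchain* and *Thy1* were each kept in 2 of the 6 fits with a sample left out. In bulk samples, fewer cells of a type and less RNA per cell cannot be told apart.

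The surrogate light chain genes *Igll1*, *Vpreb1* and *Vpreb2* and the recombinase genes *Rag1* and *Rag2* were lower in cells treated with LY2090314, and *Dntt* was higher. Of the 7 genes, 5 were called lower, 1 was called higher and *Vpreb3* was not called. The background of such calls was high in this comparison: 50.1% of all genes tested were called in either direction, 25.3% lower and 24.8% higher. Sizes set the genes further apart than calls did. The 5 genes that fell had log2 differences of −1.17 to −1.93, whereas a call with a fall of at least 1 was made for 1.86% of all genes tested. In 5 genes all treated samples lay below all control samples, which held for 29.5% of the genes tested, and in 6 genes the groups did not overlap in either direction, which held for 58.6%. The median difference was −1.27 over the 7 genes and 0.012 over all genes tested, where the median size of a difference was 0.24.

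**Figure D1:**
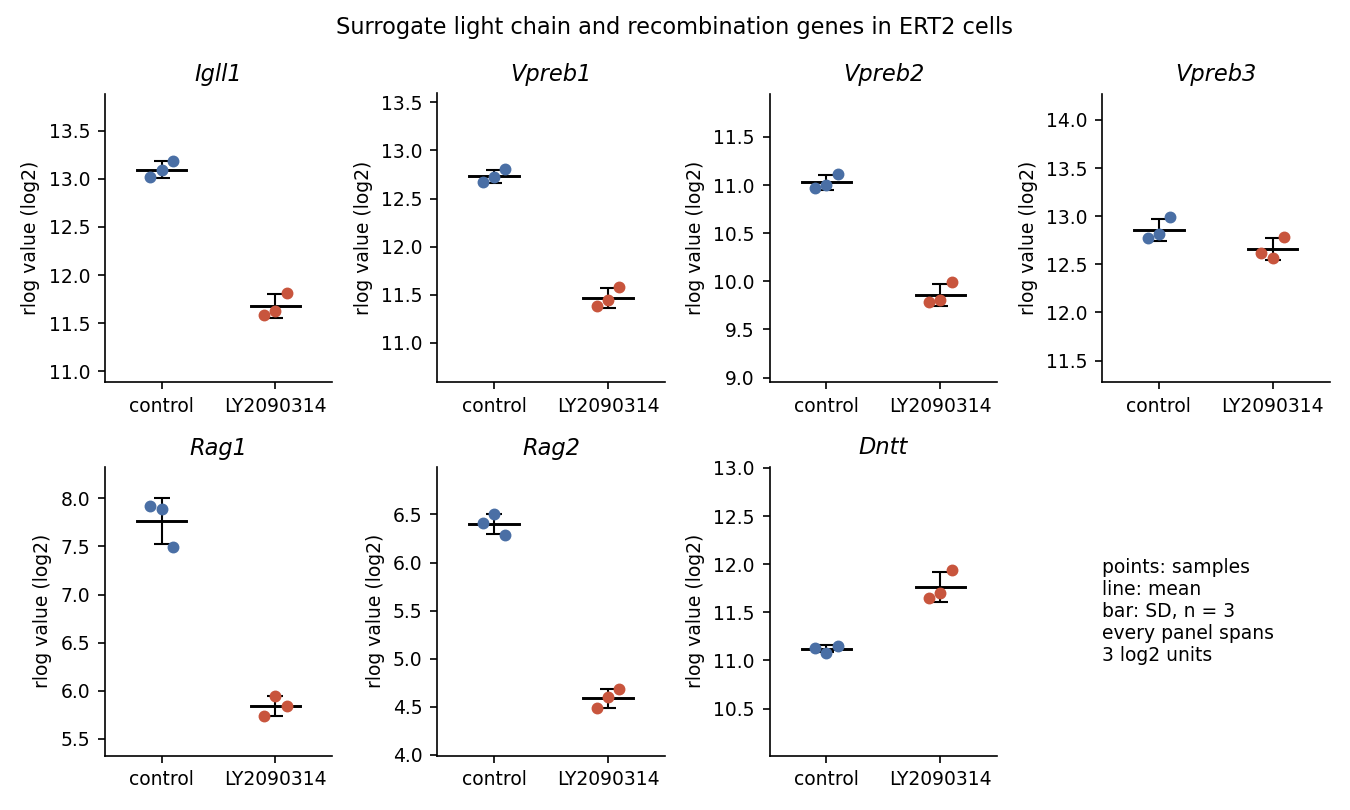
rlog values (log2) of the 7 genes in the 3 control and the 3 LY2090314-treated samples of ERT2 cells. Points are samples, lines are means and bars are SD (n = 3), and every panel spans 3 log2 units. The groups overlap for *Vpreb3* and are separate for the other genes, with *Dntt* higher and the rest lower in treated cells.

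By mean difference, the recombinase genes fell most. *Rag1* (ENSMUSG00000061311, chromosome 2 of GRCm38, 101638282 to 101649501, minus strand) encodes the subunit with the catalytic site. Its rlog values were 7.92, 7.89 and 7.49 in the control samples and 5.73, 5.94 and 5.85 in treated samples A, B and C. The treated samples were close together, while the control samples spread over a wider range with control sample 3 the lowest, and no treated sample reached it. The mean went from 7.77 ± 0.24 to 5.84 ± 0.10 (SD, n = 3), a fall of −1.93 (95% interval −2.23 to −1.62, standard error 0.13, adjusted p = 1.5e-05 from limma) or 3.80-fold. *Rag1* ranked number 28 among the falls, and 0.234% of genes tested fell more.

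*Rag2* (ENSMUSG00000032864, chromosome 2, 101624718 to 101632529, plus strand) encodes the regulatory subunit, which recruits the recombinase to active chromatin. It had values of 6.41, 6.50 and 6.29 in control samples and 4.48, 4.61 and 4.68 in treated samples. Both groups were narrow and far apart. The mean fell from 6.40 ± 0.11 to 4.59 ± 0.10 (SD, n = 3), a fall of −1.81 (95% interval −2.04 to −1.58, standard error 0.098, adjusted p = 4.1e-06 from limma) or 3.50-fold, which was number 34 among the falls. Both genes had moderate levels to begin with, at percentile 34.5 for *Rag1* and 21.8 for *Rag2* of the control levels of all genes tested, in the range where the rlog scale can understate a difference.

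*Rag1* and *Rag2* lie tail to tail in a compact locus, read on opposite strands with 5753 bases between their ends. Differences of 2 genes within a sample hold the lengths of both transcripts as a constant, so that their change between groups is read and not their size. The difference *Rag1* minus *Rag2* was 1.51, 1.39 and 1.20 in control samples and 1.25, 1.34 and 1.16 in treated samples. These groups overlapped (exact two-sided permutation p = 0.3, and 0.3 after adjustment over the 8 gene pairs compared), so that an unequal fall of *Rag1* and *Rag2* was not detectable with 3 samples against 3. Among all genes tested, *Rag2* was the gene whose profile over the 6 samples, centred on its mean, was nearest to that of *Rag1* (Euclidean distance 0.29 in log2 units), followed by *Gm5662* and *Bcl11a*. Such distances, here and below, mainly reflect how alike the differences between the groups are in size. Nearness therefore shows no further link between genes. The genes nearest to *Rag2* were *D430019H16Rik* (0.14), *Car13* and *Phka1*. *B230118H07Rik* shares 80 exonic bases with *Rag1* on the same strand (1.21% of its exons) and 208 with *Rag2* on the other strand (6.07%). It was near the lower end of the scale, at 2.52 in control and 2.26 in treated cells, below the limit for a test.

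By mean difference, the surrogate light chain genes fell by less on the log2 scale but from higher levels. *Igll1* minus *Rag1* within a sample went from 5.33 ± 0.32 to 5.84 ± 0.14 (SD, n = 3). These groups overlapped (exact permutation p = 0.2, adjusted over 8 pairs 0.23), so that an unequal fall of *Igll1* and *Rag1* was not detectable with 3 samples against 3. In control cells *Igll1* and *Vpreb1* (percentile 95.8) were near the top of all genes tested, and *Vpreb2* was at percentile 83.1. *Igll1* (ENSMUSG00000075370, chromosome 16, 16860671 to 16863985, minus strand), which encodes λ5, had rlog values of 13.01, 13.09 and 13.19 in control samples and 11.59, 11.63 and 11.82 in treated samples. Treated sample C was the highest of its group, and the gap to the lowest control sample was still wider than the range of either group. The mean went from 13.10 ± 0.086 to 11.68 ± 0.12 (SD, n = 3), a fall of −1.42 (95% interval −1.59 to −1.25, standard error 0.075, adjusted p = 3.4e-06 from limma) or 2.68-fold. In control cells *Igll1* stood at percentile 97 of all genes tested, and 0.659% of genes fell more. The nearest profile was that of *Spib*, an Ets family transcription factor of B cells (distance 0.063), followed by *Nedd4* (0.11) and *Car2* (0.14).

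*Vpreb1* (ENSMUSG00000059305, chromosome 16, 16868403 to 16870843, minus strand) encodes the V-like partner of λ5. It was at 12.67, 12.72 and 12.81 in control samples and at 11.38, 11.45 and 11.58 in treated samples, with no overlap. On average it went from 12.73 ± 0.068 to 11.47 ± 0.10 (SD, n = 3), a fall of −1.27 (95% interval −1.42 to −1.12, standard error 0.065, adjusted p = 2.9e-06 from limma) or 2.40-fold. *Vpreb2* (ENSMUSG00000059280, chromosome 16, 17980428 to 17981273, plus strand) is a near copy of *Vpreb1* that can take its place. Its values were 10.97, 11.00 and 11.12 in control samples and 9.79, 9.80 and 9.99 in treated samples, again without overlap. On average it went from 11.03 ± 0.079 to 9.86 ± 0.12 (SD, n = 3), a fall of −1.17 (95% interval −1.33 to −1.0, standard error 0.072, adjusted p = 8.1e-06 from limma) or 2.24-fold.

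How much of the *Vpreb2* value belongs to *Vpreb2* is uncertain. The longest protein-coding transcripts of *Vpreb1* (766 bases) and *Vpreb2* (759 bases) were identical at 739 of 766 aligned positions (96.5%), with 20 substitutions, 7 gap positions and an identical run of up to 196 bases, which is longer than a read of 101 bases. Of the stretches of 31 bases in the annotated transcripts, 30.2% for *Vpreb1* and 50.5% for *Vpreb2* occurred in the other gene. For *Igll1*, *Vpreb3* and *Dntt*, 0 of these stretches occurred in another gene, and the share was 0.79% for *Rag1* and 0.526% for *Rag2*. The difference between *Vpreb1* and *Vpreb2* within a sample was 1.71 ± 0.018 in control cells and 1.61 ± 0.035 in treated cells (SD, n = 3). The groups did not overlap, but the exact two-sided permutation p of 0.10 is the smallest that 3 against 3 allow, and it was 0.13 after adjustment over 8 pairs. *Vpreb1* also shares 108 exonic bases (9.01%) with *Top3b* on the opposite strand, and the strand setting of the counting is not given in the sources used here. *Top3b* itself was lower in treated cells (−0.81, adjusted p = 0.02 from limma).

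*Igll1* and *Vpreb1* are neighbours on chromosome 16, with 4418 bases between them, while *Vpreb2* lies further along the same chromosome. The difference between *Igll1* and *Vpreb1* within a sample went from 0.36 ± 0.019 to 0.21 ± 0.031 (SD, n = 3, exact permutation p = 0.10, adjusted over 8 pairs 0.13), a small change beside the fall of either gene. *Vpreb1* had *Tmbim1* as its nearest profile (distance 0.072), followed by *Mgll* and *Ifrd2*. For *Vpreb2* these were *Tuba4a* (0.064), *Gsto1* and *Ighm* (0.0996), the gene of the µ heavy chain itself.

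*Vpreb3* was the only gene of the 7 that was not called. *Vpreb3* (ENSMUSG00000000903, chromosome 10, 75943057 to 75949657, plus strand) was at 12.77, 12.81 and 12.99 in control samples and at 12.62, 12.56 and 12.78 in treated samples. Treated sample C lay above the lowest control sample. Means were 12.86 ± 0.11 and 12.66 ± 0.11 (SD, n = 3), a difference of −0.20 (95% interval −0.38 to −0.016, standard error 0.080) that missed the threshold (adjusted p = 0.069 from limma, and exact permutation p = 0.2). Without treated sample C it was −0.26 and passed (adjusted p = 0.016 from limma), and over all 13 alternative settings the adjusted p lay between 0.016 and 0.21. The difference between *Igll1* and *Vpreb3* within a sample went from 0.24 ± 0.039 to −0.98 ± 0.048 (SD, n = 3), with no overlap (exact permutation p = 0.10, adjusted over 8 pairs 0.13). Among the profiles nearest to *Vpreb3* were those of *Acbd6* (distance 0.041) and *Psmd8* (0.042), which had differences of about the same small size.

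*Dntt* went in the opposite direction to the recombinase. *Dntt* (ENSMUSG00000025014, chromosome 19, 41029275 to 41059525, plus strand) was at 11.13, 11.08 and 11.15 in control samples and at 11.65, 11.70 and 11.94 in treated samples. The control samples were nearly equal, and treated sample C was the highest of all. The mean went from 11.12 ± 0.038 to 11.76 ± 0.16 (SD, n = 3), a rise of 0.64 (95% interval 0.46 to 0.82, standard error 0.078, adjusted p = 0.00031 from limma) or 1.56-fold. This rise was less exceptional than the falls, since 8.3% of genes tested rose more. *Dntt* minus *Rag1* within a sample went from 3.35 ± 0.27 to 5.92 ± 0.17 (SD, n = 3), with every treated sample above every control sample (exact permutation p = 0.10, adjusted over 8 pairs 0.13). The nearest profiles were *Sqstm1* (distance 0.067), *2610301B20Rik* and *Gm2a*.

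**Figure D2:**
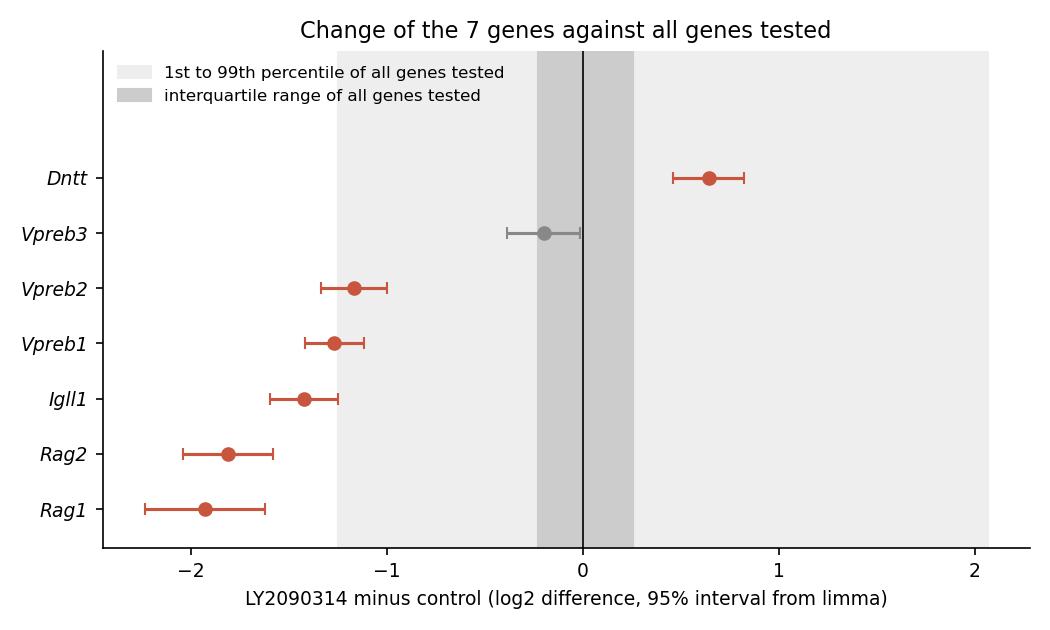
Difference between LY2090314-treated and control ERT2 cells for the 7 genes (log2, points) with the 95% interval from limma (bars), called genes in red and *Vpreb3* in grey. Bands mark the middle of all 11536 genes tested and the range from their 1st to their 99th percentile. *Rag1*, *Rag2* and *Igll1* lie to the left of the wide band, *Vpreb1* lies at its edge, and *Dntt* lies inside it on the right.

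With a constant taken off for transcript length (rlog minus the log2 of the length in kb of the longest protein-coding transcript), levels could be set beside each other. In control cells *Vpreb3* (13.31 ± 0.11), *Igll1* (13.30 ± 0.086) and *Vpreb1* (13.12 ± 0.068) led the order, followed by *Vpreb2* (11.43 ± 0.079), *Dntt* (10.03 ± 0.038), *Rag1* (5.04 ± 0.24) and *Rag2* (4.62 ± 0.11) on this length-adjusted log2 scale (SD, n = 3). *Vpreb3* and *Igll1* overlapped in control cells, and the other neighbours in this order did not. In treated cells *Vpreb3* (13.11 ± 0.11) stood alone at the top, *Igll1* (11.88 ± 0.12) and *Vpreb1* (11.85 ± 0.10) overlapped below it, and *Dntt* (10.67 ± 0.16) had passed *Vpreb2* (10.26 ± 0.12). *Rag1* (3.12 ± 0.10) and *Rag2* (2.81 ± 0.10) remained last. The rlog scale shrinks low genes, and the part of this in the order was not tested.

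**Figure D3:**
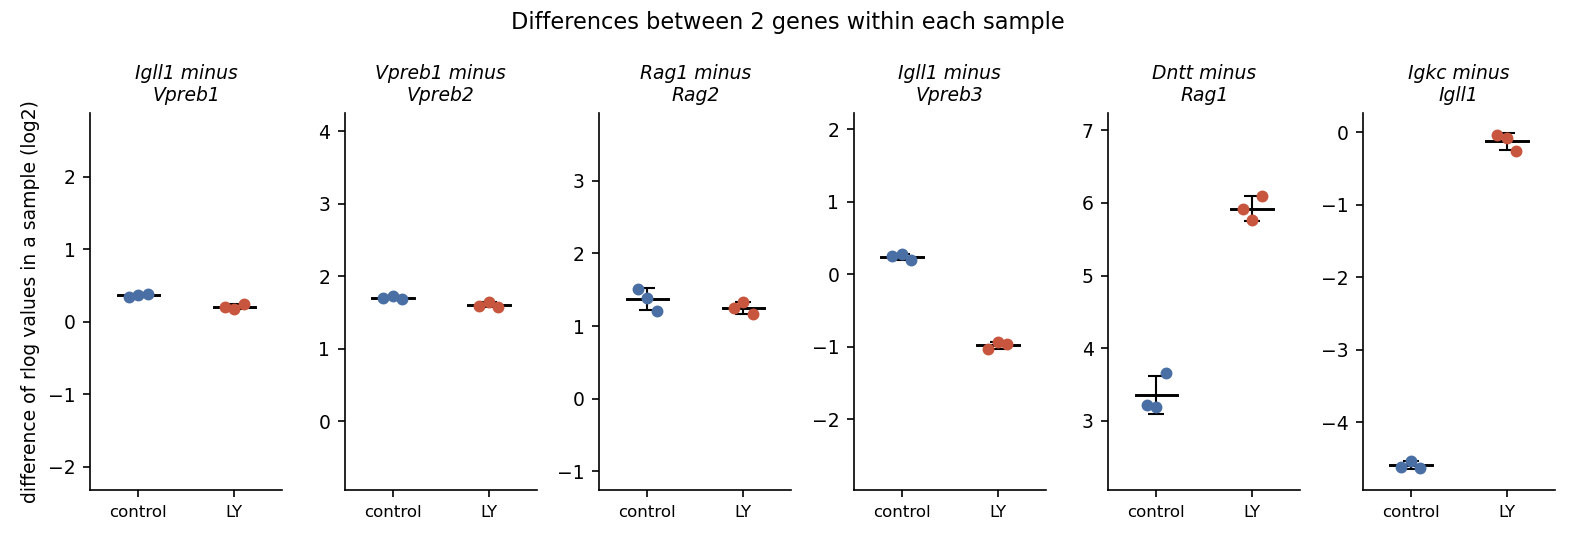
Difference between the rlog values of 2 genes in the same sample (log2) for 6 pairs in control and LY2090314-treated (LY) ERT2 cells. Points are samples, lines are means and bars are SD (n = 3), and all panels span the same range. *Rag1* minus *Rag2* overlaps between the groups, and *Igkc* minus *Igll1* goes from −4.59 to −0.12.

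Partners of the surrogate chain were called in both directions. Of 8 partners and proximal kinases of the pre-B cell receptor, all tested, 4 were called lower, 1 higher and 3 were not called, with a median difference of −0.14. Among all genes tested, 25.3% were called lower and 24.8% higher. *Ighm*, the µ heavy chain, was at 15.49, 15.50 and 15.60 in control samples and at 14.29, 14.32 and 14.40 in treated samples. It fell by about as much as *Vpreb2* (−1.20, standard error 0.070, adjusted p = 6e-06 from limma). *Ighm* minus *Igll1* within a sample went from 2.44 ± 0.036 to 2.66 ± 0.068 (SD, n = 3, exact permutation p = 0.10, adjusted over 8 pairs 0.13). Of the signalling chains, *Cd79b* fell (−0.94, adjusted p = 6.7e-06), whereas *Cd79a* had a difference of 0.23 that missed the threshold (adjusted p = 0.053, both from limma). The adaptor *Blnk* fell (−0.44) and the kinase *Syk* rose (0.48), while the kinases *Lyn* (−0.14) and *Btk* (0.038) were not called.

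The constant gene of the light chain that replaces the surrogate chain rose. *Igkc*, which encodes the constant part of the κ light chain, was at 8.40, 8.56 and 8.55 in control samples and at 11.55, 11.55 and 11.56 in treated samples. The treated samples were nearly identical and far above all control samples. Means went from 8.50 ± 0.087 to 11.55 ± 0.0069 (SD, n = 3), a rise of 3.05 (95% interval 2.92 to 3.18, standard error 0.057, adjusted p = 2.3e-08 from limma) or 8.27-fold. Only 0.338% of genes tested rose more. *Igkc* minus *Igll1* within a sample went from −4.59 ± 0.055 to −0.12 ± 0.12 (SD, n = 3, exact permutation p = 0.10, adjusted over 8 pairs 0.13). The constant gene is also known to give transcripts from the unrearranged locus, and the table does not separate these from transcripts of an assembled chain. *Iglc2*, a λ constant gene, was at −1.96 in both groups, and *Iglc1* and *Iglc3* are not analysed here.

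The genes that act in rejoining the cut ends were called in both directions. Of 15 genes of V(D)J break repair, all tested, 4 were called higher, 5 lower and 6 were not called, with a median difference of −0.087. The shares over all genes tested were 24.8% higher and 25.3% lower. *Lig4*, the ligase of end joining, was at 10.34, 10.22 and 10.35 in control samples and at 11.41, 11.46 and 11.47 in treated samples, a rise of 1.14 (standard error 0.052, adjusted p = 1.7e-06 from limma). *Xrcc6* (Ku70) rose by 0.85 and *Xrcc4*, the partner of the ligase, by 0.39, whereas *Xrcc5* (Ku80) was called lower (−0.25). *Prkdc*, the DNA-dependent kinase, fell (−0.43), and *Dclre1c* (Artemis), the nuclease that opens hairpin ends, was called higher (0.58, adjusted p = 0.02 from limma). *Hmgb1* (−0.25) and *Hmgb2* (−0.47), DNA-bending cofactors of the recombinase, were lower, as was *Trp53bp1* (−0.37). The calls of *Dclre1c*, *Xrcc5* and *Hmgb1* were each kept in 2 of the 6 fits with a sample left out. *Polm* and *Poll*, polymerases related to *Dntt*, had differences of 0.072 and 0.045 and were not called.

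Among 20 transcription factors known to act at these genes, all tested, 9 were called higher, 9 lower and 2 were not called, with a median difference of 0.072. Of all genes tested, 24.8% were called higher and 25.3% lower. The list was chosen with earlier results of these data known. *Ebf1*, *Pax5* and *Tcf3* (E2A), which are known to activate the surrogate chain genes, were all lower, by very different amounts. *Pax5* was at 14.13, 14.17 and 13.86 in control samples and at 12.59, 12.57 and 12.37 in treated samples (−1.54, standard error 0.098, adjusted p = 9.8e-06 from limma). *Ebf1* had a difference of −0.40 and *Tcf3* of −0.34. *Foxo1*, an activator of *Rag1* and *Rag2*, went the other way, from 12.08 ± 0.033 to 12.35 ± 0.10 (0.27, adjusted p = 0.0072 from limma), and *Foxo3* was close to the threshold (0.14, adjusted p = 0.045 from limma) and lost its call in all 6 fits with a sample left out. The largest fall of the list was that of *Bcl11a* (−1.96), a zinc finger factor of early lymphoid cells, followed by *Pax5* and *Spib* (−1.43).

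*Irf8* (−0.49), *Gfi1b* (−0.43), *Bach2* (−0.38) and *Ikzf1* (−0.23) were also lower. *Bach2* kept its call in 4 of the 6 fits with a sample left out. *Tcf12* (1.59), an E protein related to *Tcf3*, *Irf4* (1.41), *Ikzf3* (1.06), *Runx1* (1.04), *Myb* (1.00), *Sox4* (0.90) and *Lef1* (0.80) rose on the log2 scale. *Irf4* and *Ikzf3* are known to be induced by pre-B cell receptor signals and to act in the silencing of *Igll1*, and *Irf4* also at the κ locus. The paper describes *Ikzf1*, which was lower, as a repressor in B cells too. Activators and repressors were thus found among both the higher and the lower factors, and the part of any of them was not tested. *Spi1* (0.057) and *Foxp1* (0.086) were not called.

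Of 14 listed markers of B cell stages, 11 were tested, 7 were called higher, 1 lower and 3 were not called, with a median difference of 0.38, beside the 24.8% of all genes tested that were called higher. *Il2ra* (CD25), which marks pre-B cells that have passed the heavy chain checkpoint, was at 9.14, 8.99 and 9.04 in control samples and at 11.83, 11.88 and 11.74 in treated samples, a rise of 2.75 (standard error 0.060, adjusted p = 4e-08 from limma). *Flt3*, a receptor of earlier progenitors, also rose (1.13), from 4.26 ± 0.043 to 5.39 ± 0.16 (SD, n = 3). Higher too were *Enpep* (BP-1, 0.90), *Cd93* (0.83), *Cd2* (0.54, kept in 2 of the 6 fits with a sample left out), *Bst1* (BP-3, 0.38) and *Il7r* (0.35). *Cd22*, a marker that increases as B cells mature, fell (−1.10). *Cd24a*, *Spn* (CD43) and *Cr2* were not called, and *Kit*, *Ms4a1* (CD20) and *Fcer2a* (CD23) were too low to test.

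**Figure D4:**
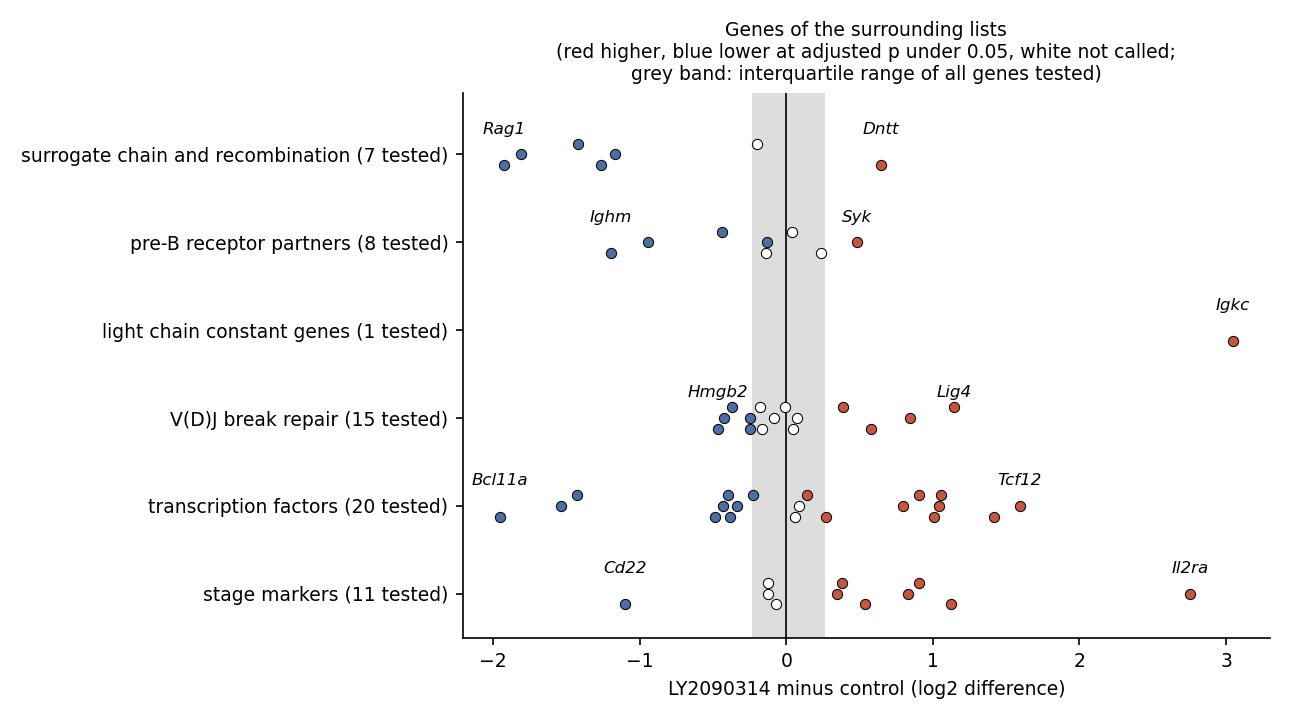
Difference between LY2090314-treated and control ERT2 cells (log2) of the tested genes in each list, with genes called higher in red, called lower in blue and not called in white, and the lowest and highest gene of each list named. The grey band is the interquartile range of all 11536 genes tested. The 5 falling genes lie left of −1, *Igkc* and *Il2ra* lie furthest to the right, and the repair genes and transcription factors spread to both sides.

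Other genes on the same stretches of chromosome were called lower more often than higher. Within 100 kb of the 7 genes lie 40 other annotated genes, of which 32 are in the table and 16 were tested. Of these, 8 were called lower and 1 higher, with a median difference of −0.11, beside the 25.3% called lower and 24.8% called higher of all genes tested. Beside *Igll1* and *Vpreb1*, *Ppm1f* fell (−1.05, adjusted p = 1.8e-05 from limma), as did *Top3b*. *Traf6*, on the far side of *Rag1*, had a difference of 0.12 (adjusted p = 0.052). *Slc25a1* (−0.78) was lower beside *Vpreb2*. *Chchd10* (−0.96), *Mif* (−0.76) and *Smarcb1* (−0.44) were lower and *Zfp280b* (0.30) higher beside *Vpreb3*, which itself was not called. *Blnk*, which belongs to the receptor list, lies beside *Dntt* and fell while *Dntt* rose.

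The promoters of *Igll1*, *Rag1*, *Rag2* and *Dntt* are shown because 3 of these genes fell and *Dntt* rose. They are the 250 bases before the RefSeq start of each gene on GRCm38.p6, written 5′ to 3′ on the strand of the gene, with capitals for matches to the motifs named next. Those of *Vpreb1* and *Vpreb2* overlap annotated exons and are not shown.

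Igll1, chr16:16863986-16864235, minus strand: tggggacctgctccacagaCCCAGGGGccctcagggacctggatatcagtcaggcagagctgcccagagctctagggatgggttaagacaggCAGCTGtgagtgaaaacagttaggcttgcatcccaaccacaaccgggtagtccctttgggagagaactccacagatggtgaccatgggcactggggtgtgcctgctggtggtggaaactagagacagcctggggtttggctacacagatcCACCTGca
Rag1, chr2:101649533-101649782, minus strand: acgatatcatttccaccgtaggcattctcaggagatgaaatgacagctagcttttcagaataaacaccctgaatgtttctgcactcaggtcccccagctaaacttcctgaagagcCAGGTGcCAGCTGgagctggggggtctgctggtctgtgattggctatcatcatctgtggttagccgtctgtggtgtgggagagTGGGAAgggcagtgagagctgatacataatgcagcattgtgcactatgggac
Rag2, chr2:101624462-101624711, plus strand: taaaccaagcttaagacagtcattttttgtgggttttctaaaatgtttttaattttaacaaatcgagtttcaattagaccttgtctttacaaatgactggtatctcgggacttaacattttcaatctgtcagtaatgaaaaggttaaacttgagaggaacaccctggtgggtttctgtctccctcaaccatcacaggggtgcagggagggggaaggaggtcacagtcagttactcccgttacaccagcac
Dntt, chr19:41029025-41029274, plus strand: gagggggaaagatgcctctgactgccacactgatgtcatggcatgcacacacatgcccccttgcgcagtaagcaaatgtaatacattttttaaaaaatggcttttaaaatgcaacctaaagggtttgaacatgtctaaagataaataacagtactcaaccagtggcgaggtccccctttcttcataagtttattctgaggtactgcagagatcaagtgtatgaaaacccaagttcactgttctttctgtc

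Motifs were searched on both strands of windows from 250 bases before to 50 bases after the start, for the 7 genes and for all 27025 windows of the RefSeq table. The EBF core CCCNNGGG was found in *Igll1*, at position −231 from the start, and in 13.4% of all windows. The E-box CAGGTG was found in *Igll1*, *Vpreb1*, *Vpreb2* and *Rag1*, and in 20.0% of all windows. The E-box CAGCTG was found in *Igll1*, *Vpreb2* and *Rag1*, and in 16.1% of all windows. In *Rag1* these E-boxes lie next to each other, at positions −135 and −128. The Ikaros motif, searched as TGGGAA, was found in *Vpreb2*, where it overlaps the E-box CAGCTG, and in *Rag1*, at position −52, against 25.5% of all windows. The paper names the shorter core GGGAA, which was not searched here. This core also occurs in the printed sequences of *Rag2* and *Dntt*, and its share of all windows was not counted. The forkhead motif GTAAACA (3.55% of all windows) and the TCF/LEF motif CTTTGAT (3.72%) were in none of the 7 windows. The windows of *Rag2*, *Vpreb3* and *Dntt* held none of the 6 motifs in the letters searched. The windows of *Vpreb1* and *Vpreb2* share 156 aligned bases with 153 identical, so that they are not independent. A match is a run of letters and does not show that a factor was bound.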

How the data were processed

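RNA-seq libraries of polyadenylated RNA were made with a stranded kit and sequenced in pairs of 101 bases. The authors' methods name Salmon for quantification, STAR for alignment to GRCm38 (annotation GENCODE vM24) and DESeq2. They deposited a table of log2 (rlog) values, in which counts are scaled for library size and shrunk for genes with few reads. Differences of low genes are understated, and depth and counting error are unknown. Of 12 columns, 6 were used and matched to groups by name. The other 6 combine Cre and LY in their names, could not be matched and were not used.

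Genes with a mean of at least 3 over the 6 samples were tested with limma 3.58.1 in R 4.3.3 (mean-variance trend, Benjamini-Hochberg adjustment over 11536 genes, threshold 0.05), and the steps were tested on simulated data. Exact two-sided permutation tests used all 20 regroupings, whose smallest p is 0.10, the value for each of the 6 genes called. The named genes are the 7 genes, every gene of the lists, genes within 100 kb and the 3 nearest profiles of each, of which 2 genes are not reported here. The members and lists were chosen with earlier results of these data known. Symbols matched 41157 of 41444 identifiers. Positions come from GENCODE vM21, an earlier release on the same build as that of the study, and promoters from RefSeq. Alternatives were another lower limit (none or 5), no trend, median centring, quantile normalization, a log2 difference of at least 1, a threshold of 0.01, each sample left out, and columns A and B as 1 sample.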

Additional observations from a re-analysis of the deposited data

How the results depend on the processing

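The 6 called genes among the 7 kept their direction and stayed past the threshold in all 13 alternatives run for each of them. Over these, the log2 difference lay between −1.49 and −1.38 for *Igll1*, −1.32 and −1.22 for *Vpreb1*, −1.23 and −1.12 for *Vpreb2*, −2.07 and −1.85 for *Rag1*, −1.91 and −1.76 for *Rag2* and 0.55 and 0.70 for *Dntt*. With a sample left out, 6 or 7 of the 7 genes were called, with *Vpreb3* (−0.26) the addition without treated sample C. Requiring a log2 difference of at least 1 left 5 of the 7 genes, 14 of the 41 called genes of the lists (9 higher, 5 lower) and 693 of the 5778 genes called in all (478 higher, 215 lower), by construction. With a sample left out, 35 to 41 list genes and 4741 to 6225 genes in all were called, and 34 of the 41 list genes were called in every such fit. Quantile normalization shifted the median of all genes by −0.049 and gave 2562 genes higher and 3345 lower. No paired analysis was possible because the numbers in the column names are not the replicate numbers of the titles. Depth is unknown, so a limit from counting error cannot be given, and falls of low genes such as *Rag2* may be understated by the rlog scale.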

Other observations

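The segments that the recombinase joins were nearly invisible in the table. These genes were looked at after the other values were seen. Of 174 *Ighv* genes, 1 had a mean rlog value of at least 3 (*Ighv14-2*, 3.21) in the 6 samples, although the constant gene *Ighm* was at 15.53 in control cells. Of 102 *Igkv* genes, 3 reached a mean of 3 and 42 were listed at 0. All 4 *Ighj* and 5 *Igkj* genes were listed at 0. A listed 0 does not show that a segment was unused.

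The 3 *Igkv* genes did not move together. The *Igkv* gene with the highest level went from 5.30 ± 0.0091 to 5.78 ± 0.087 (SD, n = 3, adjusted p = 0.0024 from limma) and *Igkv1-88* from 4.34 ± 0.31 to 5.17 ± 0.029 (SD, n = 3, adjusted p = 0.0023 from limma). *Igkv3-2* fell from 4.23 ± 0.038 to 3.46 ± 0.034 (SD, n = 3, adjusted p = 8.1e-05 from limma). All of these changes were smaller than the rise of 3.05 of *Igkc*. In each gene the treated and control samples did not overlap, which held for 58.6% of all genes tested.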
